A study of Rattus norvegicus with 20 samples.

Results

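The genes described here are 10 genes of lipid clearance and foam cell formation, the state of a phagocyte filled with lipid droplets. They were chosen by name (Apoe, Apoc1, Abca1, Abcg1, Lpl, Plin2, Soat1, Ch25h, Lipa and Npc2) and taken from the 30443 genes listed in the expression table. Each was listed once. All 10 were among the 15210 genes kept because at least 1 of the 20 libraries reached 1 FPKM (a level in which fragments are scaled by transcript length and by the mapped reads of the library), and no value of theirs lay at the table's floor of 0.1 FPKM.

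The libraries came from 4 adult female Long-Evans rats of wild-type genotype, about 6 to 8 months old. Every rat had a contusion of one side of the cord at cervical level 4, set to a displacement of 0.7 mm, and later received a cortical electrode array, in the motor area of the hemisphere opposite to the injury. Stimulated animals 1 and 2 then received cortical pulses at 10 Hz for 5 hours a day over a week, at currents below the movement threshold, and control animals 1 and 2 were kept under the same conditions with no current. From each rat 5 regions were sequenced: subcortical white matter below the implant (region 1), its counterpart in the other hemisphere (region 2), the cord rostral to the lesion (region 3, about cervical levels 2 to 4), the lesion epicenter (region 4, level 4) and the cord caudal to it (region 5, about levels 4 to 6 by the labels, placed 1 level lower in the study's methods). A cord block held gray and white matter, and no uninjured or unimplanted animal was among the samples.

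Myelin is rich in cholesterol, which cells of the central nervous system cannot break down. Phagocytes that take up myelin debris free its cholesterol in lysosomes, and then either store it as esters in lipid droplets or pass it out to apolipoprotein particles. Foam cells arise when uptake and storage outrun export, and they are a known feature of demyelinating lesions and of the injured cord.

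Sums of FPKM over all genes ranged from 191481 to 290718 between libraries. The table holds no read numbers, so the depth behind a single gene is unknown and precision rests on the spread between animals. Libraries of stimulated animal 2 stood apart in several regions. In region 2 its summed level of 8 microglia and macrophage markers was 258 FPKM, against 49.9 to 58.4 in the other animals. In region 4 the same sum was 188 FPKM, against 247 to 358. Counts of calls between regions are therefore also given without that animal. The white matter blocks were lower than the cord in 4 of 4 oligodendrocyte markers and higher in 4 of 4 neuronal markers (limma, median log2 differences -2.46 and 2.41). Slc17a7, a glutamate transporter gene of cortical excitatory neurons, measured 225 to 329 FPKM in them and 0.318 to 11.8 FPKM in the cord, and the myelin gene Mbp 385 to 1484 FPKM against 3836 to 5813 FPKM. Whether these blocks also held cortical gray matter was not tested, so values of regions 1 and 2 are those of the blocks as labelled.

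Apoe, the main lipid carrier apolipoprotein of the brain, was the most abundant member. Its mean over the 20 libraries was 2059 FPKM, with a range of 882 to 4803 FPKM. In region 1 it ranked 3rd of all genes in control animal 1 and 1st in the other animals. In region 4 it measured 4803 and 3922 FPKM in the controls and 3843 and 2141 FPKM in the stimulated animals, ranking from 1st to 5th. Region 3 held 1284 to 1643 FPKM and region 2 held 882 to 1461 FPKM, so the lesion values lay above those of both regions in every animal.

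Apoc1 encodes a small apolipoprotein and lies directly beside Apoe in the rat genome, next to Apoc4. It was far less abundant, at a mean of 6.64 FPKM. In region 4 the controls had 20.01 and 12.6 FPKM and the stimulated animals 11.9 and 5.51 FPKM. The next region by mean was region 1, with 6.20, 6.88, 13.0 and 7.004 FPKM in control 1, control 2, stimulated 1 and stimulated 2. Regions 2, 3 and 5 spanned 2.41 to 5.80 FPKM, and Apoc1 was the single member whose mean was lower in region 5 than in region 3.

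Abca1 and Abcg1 encode membrane transporters that hand cholesterol to lipid-poor apolipoproteins and to lipoprotein particles. Abca1 in region 4 measured 73.7, 53.4, 48.4 and 28.9 FPKM, in the order control 1, control 2, stimulated 1, stimulated 2. Region 3 held 9.53 to 13.8 FPKM, region 5 held 18.5 to 23.9 FPKM and region 2 held 5.39 to 16.8 FPKM, so that every lesion library was above every library of those regions. Abcg1 varied least among the members, by 2.78-fold between its lowest and highest library against 20.5-fold for Plin2. Its region 4 values were 26.7, 20.7, 24.0 and 15.0 FPKM, and its other libraries lay between 9.59 and 20.3 FPKM.

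Upstream sequence was available for 8 of the 10 members, in a RefSeq table of promoter windows on the GRCr8 build. The 250 bases before the start site are shown for Abca1 and Plin2 because they were the members that held CACGTG, the letters of an E-box read by factors of lysosome and lipid genes. CACGTG was in 2 of 8 members and in 6.18% of 27457 genes with a window. Capitals mark CACGTG in both and, in Abca1, a repeat of the form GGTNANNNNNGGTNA on the opposite strand, the loose form of the element read by liver X receptors. That repeat was found in 0.652% of genes. Both genes lie on the minus strand, and the Plin2 window is the 1 of its 2 windows with a match.
Abca1, chr5:72596474-72596723, minus strand: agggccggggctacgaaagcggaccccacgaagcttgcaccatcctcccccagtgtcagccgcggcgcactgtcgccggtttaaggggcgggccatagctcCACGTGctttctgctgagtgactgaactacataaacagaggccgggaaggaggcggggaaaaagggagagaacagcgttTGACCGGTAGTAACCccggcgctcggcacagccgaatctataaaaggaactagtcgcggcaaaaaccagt
Plin2, chr5:106229019-106229268, minus strand: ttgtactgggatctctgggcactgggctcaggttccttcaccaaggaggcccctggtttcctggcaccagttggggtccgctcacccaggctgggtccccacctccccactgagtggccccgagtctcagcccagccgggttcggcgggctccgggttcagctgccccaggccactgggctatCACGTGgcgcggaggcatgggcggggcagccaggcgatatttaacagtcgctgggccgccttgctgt
The E-box began 149 bases before the start site in Abca1 and 67 bases before it in Plin2. Both strands were searched. GGGCGG, a GC box, was found in 7 of 8 members and 33.5% of genes. GGTNANNGGTNA and TGANTCA were found in 0 of 8 members, and in 0.783% and 6.99% of genes. These are letter matches in the windows, and binding was not measured.

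Lpl encodes lipoprotein lipase, which releases fatty acids from lipoprotein particles. It measured 11.5, 7.34, 5.69 and 3.19 FPKM in region 4 in the animal order above, and 1.66 to 2.34 FPKM in region 3. Control 1 therefore had the highest and stimulated 2 the lowest lesion value, as was the case for most members. In region 1 the values were 4.64, 3.65, 3.39 and 4.94 FPKM, above all 4 libraries of region 2 at 1.90 to 2.67 FPKM.

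In the lysosome, Lipa encodes the acid lipase that splits cholesterol esters and Npc2 a soluble protein that carries free cholesterol to the lysosomal membrane. Lipa in region 4 was 30.5, 24.0, 23.3 and 14.6 FPKM, and in region 3 it was 10.6 to 12.8 FPKM. Npc2 was the second most abundant member, with 364, 261, 382 and 211 FPKM in region 4 and 93.6 to 139 FPKM in region 3. For Npc2 the highest lesion library was that of stimulated 1, the exception to the lead of control 1 among the members. In region 2 the Npc2 level of stimulated 2 was 111 FPKM, against 23.1 to 27.1 FPKM in the other animals.

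Of the storage and oxysterol genes, Soat1 esterifies cholesterol for storage, Plin2 coats lipid droplets, and Ch25h makes 25-hydroxycholesterol, an oxysterol of activated macrophages. Soat1 in region 4 measured 29.2, 21.6, 22.0 and 13.7 FPKM, and 7.65 to 9.13 FPKM in region 3. Plin2 measured 49.9, 37.0, 44.0 and 23.7 FPKM in region 4 and 13.8 to 17.0 FPKM in region 3. Its region 5 libraries were close to each other at 30.7 to 32.7 FPKM, above stimulated 2 in the lesion. Its highest value of all, 52.7 FPKM, was in region 1 of stimulated 2, where the other animals had 6.44 to 9.97 FPKM. Ch25h measured 7.39, 5.41, 7.13 and 3.93 FPKM in region 4, and in regions 1 and 2 it was 6.35 and 7.93 FPKM in stimulated 2 and 0.771 to 2.93 FPKM in the others.

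**Figure D1:**
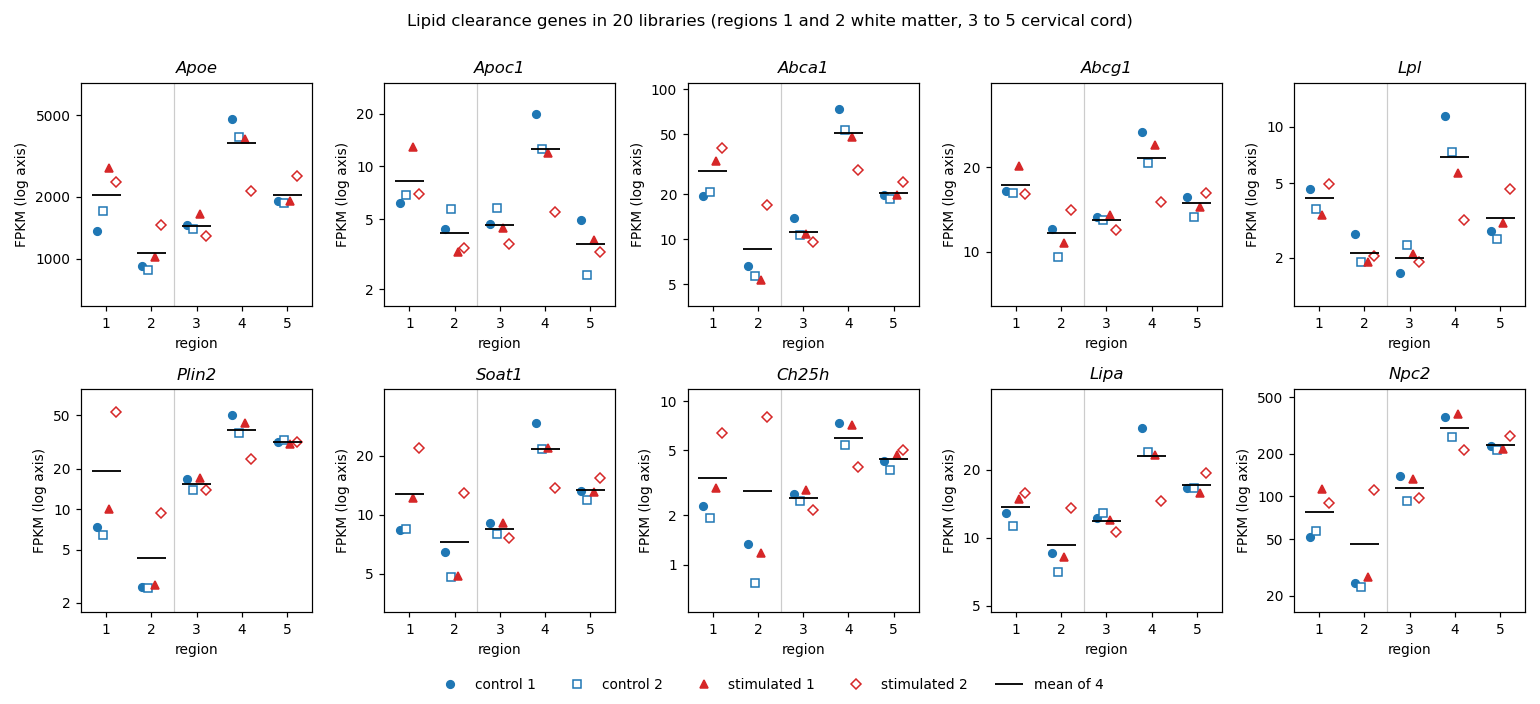
FPKM of each of the 10 genes (log axis) in regions 1 to 5, with 1 point for each animal and a line at the mean of 4. All 10 lines are highest in region 4, and the open diamonds of stimulated 2 are the lowest points of region 4 in every panel.

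All 10 members had their highest regional mean in region 4, where 15.7% of the genes kept had theirs. The order of the other regions differed between members. Apoe, Plin2, Soat1 and Lipa ran from region 4 through 5, 1 and 3 to 2, while Abca1 and Abcg1 ran from 4 through 1, 5 and 3 to 2. Libraries of neighbouring regions in these orders overlapped in most pairs. The exceptions without overlap were Apoc1 between regions 1 and 3, Abca1 between 5 and 3, Plin2 between 3 and 2, Lipa between 5 and 1, and Npc2 between 5 and 3.

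At the lesion epicenter, 8 of the 10 members were higher than in the rostral cord (region 4 minus region 3, limma with Benjamini-Hochberg adjustment over all 15210 genes, adjusted p under 0.05), where 6.78% of all genes were higher and 12.8% lower. The median log2 difference was 1.30 for the members and -0.02 for all genes. Abca1 differed most, by 4.36-fold (log2 2.12 ± 0.32 SE, n = 4 per region, limma adjusted p = 0.000394). Among the apolipoproteins the log2 differences were 1.29 ± 0.25 for Apoe (limma adjusted p = 0.00174) and 1.31 ± 0.32 for Apoc1 (limma adjusted p = 0.00878).

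Lpl was 3.15-fold higher in the lesion than in the rostral cord, and Abcg1 1.63-fold. The lysosomal genes Npc2 and Lipa were 2.60-fold and 1.88-fold higher, and Soat1 2.48-fold higher, all past the threshold. Plin2 and Ch25h were not called, at log2 1.28 ± 0.50 (limma adjusted p = 0.0777) and 1.19 ± 0.50 (limma adjusted p = 0.0978), although their 4 lesion libraries lay above all 4 rostral ones. In all, 9 members showed such separation upward, against 13% of genes, while Apoc1 overlapped through stimulated 2. The SEs between regions draw on the spread within all 5 regions, white matter included, and not only on the regions compared. Without stimulated 2 all 10 members were called higher, and so were 15.7% of all genes. The count was 3 without control 1 (1.37% of all genes), 3 without control 2 (0.874%) and 5 without stimulated 1 (1.45%).

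Within each animal every member was higher in region 4 than in region 3. The median ratio over the 10 members was 3.08 in control 1, 2.69 in control 2, 2.53 in stimulated 1 and 1.69 in stimulated 2. Among the 4 ratios of a member, the highest was the 6.93 of Lpl in control 1 and the lowest the 1.25 of Abcg1 in stimulated 2.

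Markers of phagocytes moved the same way. Of 8 microglia and macrophage markers 4 were higher in region 4 than in region 3 (limma, median log2 1.23), with summed levels of 188 to 358 FPKM against 97.2 to 144 FPKM and no marker at the floor in all 4 libraries of either region. Of 6 markers of lesion phagocytes 4 were higher (limma, median log2 1.77), with sums of 423 to 1145 FPKM against 178 to 248 FPKM. Their part in the result was not tested, and in a bulk sample more cells of a type cannot be told apart from more RNA per cell. Schwann cell markers were also higher in region 4, in 3 of 3, and neuronal markers lower, in 4 of 4 (limma).

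Other lipid handling genes were read from a list of 56, of which 49 passed the filter on low values. In region 4 against region 3, 17 of the 49 were higher and 3 lower (limma), with a median log2 difference of 0.51. The scavenger and lipoprotein uptake receptors made up 7 of the 17. By size the leading genes were Fabp4, a fatty acid carrier of macrophages and fat cells, and the scavenger receptor Msr1, which is also 1 of the 6 lesion phagocyte markers. Fabp4 measured 26.7, 17.8, 9.86 and 4.46 FPKM in region 4 and 0.285 to 0.729 FPKM in region 3 (log2 4.80 ± 0.60 SE, limma adjusted p = 0.000122). Msr1 measured 0.554 to 3.87 FPKM in region 4 and 0.116 to 0.201 FPKM in region 3, close to the floor (log2 3.31 ± 0.72 SE, limma adjusted p = 0.00413). The lower genes named by the same rule were Cyp46a1, the neuronal cholesterol 24-hydroxylase, and the transporter gene Abcg4, both at log2 -0.51.

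Against the caudal cord (region 4 minus region 5), 4 members were higher, namely Apoc1, Abca1, Abcg1 and Lpl, where 0.934% of all genes were higher and 7.06% lower (limma, same adjustment). These were an apolipoprotein, both cholesterol transporters and the lipase. The log2 differences were 1.70 ± 0.32 for Apoc1 (limma adjusted p = 0.0108), 1.25 ± 0.32 for Abca1 (0.0296), 0.98 ± 0.28 for Lpl (0.0406) and 0.51 ± 0.14 for Abcg1 (0.0412). Apoe was at log2 0.79 ± 0.25 and just outside the threshold (limma adjusted p = 0.0533). The median was 0.58 over the members and -0.14 over all genes.

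The storage, lysosomal and oxysterol genes were not called between these regions, at log2 0.23 ± 0.50 for Plin2, 0.37 ± 0.38 for Npc2, 0.39 ± 0.19 for Lipa, 0.39 ± 0.50 for Ch25h and 0.65 ± 0.30 for Soat1. Stimulated 2 set itself apart here. In the other 3 animals all 10 members were higher in region 4 than in region 5, with median ratios of 2.03, 1.68 and 1.73, whereas in stimulated 2 only Apoc1 and Abca1 were, and the median ratio was 0.824. Without stimulated 2 the count of members called higher was 7, against 2.87% of all genes. It was 0 without control 1 and 0 without control 2, where 0% of all genes were higher, and 1 without stimulated 1 (1.01%). Without the filter on low values it was 1, against 0.397% of all genes. Apoc1 and Abca1 had region 4 libraries all above those of region 5, as had 1.84% of genes. Of the other lipid genes 2 were higher, Fabp4 (log2 3.27 ± 0.60 SE) and Apoc4 (2.00 ± 0.54), and 1 was lower (limma).

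**Figure D2:**
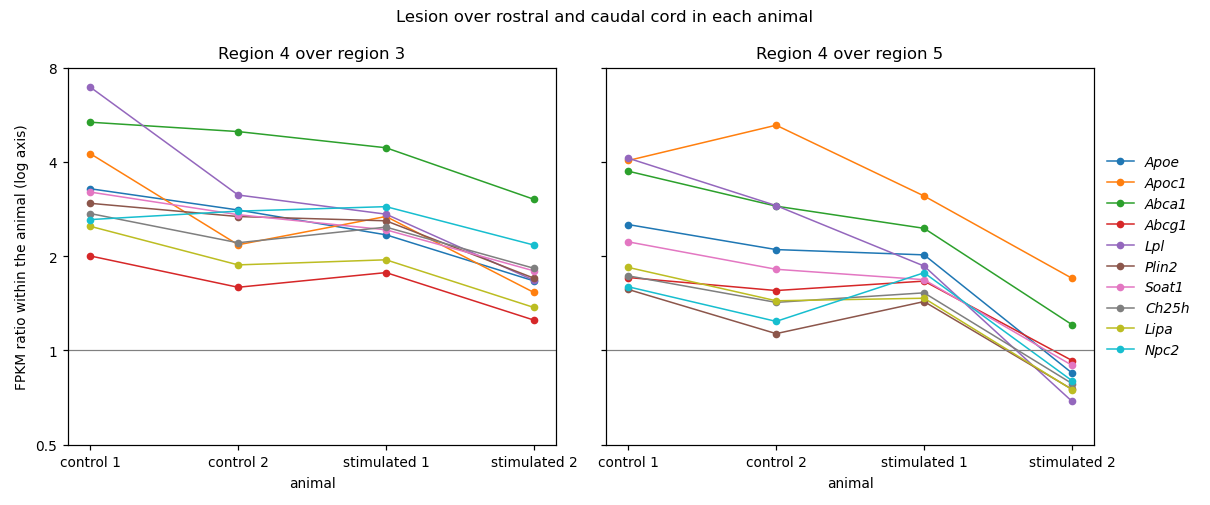
Ratio of FPKM in region 4 to region 3 (left) and to region 5 (right) within each animal, on a log axis, with 1 line for each gene joining its values. All ratios on the left are above 1, and on the right the line falls below 1 in stimulated 2 for all but Apoc1 and Abca1.

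The caudal cord did not differ from the rostral cord past the threshold for any member (region 5 minus region 3, limma), where 2.77% of all genes were higher and 1.55% lower. At an unadjusted p under 0.05, 5 members differed (24.7% of all genes). Libraries of region 5 lay above those of region 3 without overlap for 8 members, against 20.5% of genes. The largest value was that of Plin2, at 30.7 to 32.7 FPKM caudally and 13.8 to 17.0 FPKM rostrally (log2 1.05 ± 0.50, limma adjusted p = 0.203), followed by Npc2 at 210 to 264 FPKM and 93.6 to 139 FPKM (log2 1.01 ± 0.38, limma adjusted p = 0.125). These SEs draw on the spread within all 5 regions, white matter included. For Plin2 the SD was 0.839 FPKM in region 5, 1.77 FPKM in region 3 and 22.4 FPKM in region 1. Without stimulated 2, 3 members were called higher, Abca1, Plin2 and Lipa, against 5.4% of all genes. Of the other lipid genes Cyp7b1 (log2 0.80 ± 0.18) and Cyp27a1 (0.70 ± 0.17), both sterol hydroxylases, were higher caudally (limma).

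Below the implant, 5 members were higher than in the opposite hemisphere (region 1 minus region 2, limma), where 6.86% of all genes were higher and 1.76% lower. They were Apoe, Abca1, Abcg1, Lpl and Plin2, and the median log2 difference over the members was 0.93 against 0.06 over all genes. Abca1 was 3.55-fold higher (log2 1.83 ± 0.32 SE, limma adjusted p = 0.00351), with 19.5, 20.7, 33.3 and 40.6 FPKM in region 1 and 6.68, 5.70, 5.39 and 16.8 FPKM in region 2. Every region 1 library was thus above every region 2 library, as held for 4 members and 4.4% of genes.

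Plin2 was 3.47-fold higher below the implant (log2 1.79 ± 0.50, limma adjusted p = 0.0343), although its libraries overlapped through the 9.34 FPKM of stimulated 2 in region 2. Apoe was 1.89-fold higher, Lpl 1.95-fold and Abcg1 1.49-fold. Apoc1 was 1.93-fold higher and not called (limma adjusted p = 0.0720). It was called once the animal was taken as a block (limma adjusted p = 0.0489), which made 6 members, against 9.63% of all genes higher. Without stimulated 2, 9 members were called higher, all but Apoc1, against 21.6% of all genes. The count was 1 without control 1 (0.46% of all genes), 0 without control 2 (0.368%) and 0 without stimulated 1 (0.0855%). It was 3 with log2(FPKM + 1), where 4.39% of all genes were higher, and 1 without the filter on low values (1.6%), where Apoe was among the calls lost. Within animals all 10 members were higher in region 1 than in region 2 in controls 1 and 2 and stimulated 1, and 8 were in stimulated 2, with median ratios of 1.60, 1.92, 2.60 and 1.66.

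Of the other lipid genes, 20 were higher and 1 lower below the implant (limma, median log2 0.43), the higher ones including 6 of 10 uptake receptors and 6 of 12 genes of efflux and its regulation. Fabp4 measured 6.14, 3.89, 2.72 and 20.4 FPKM in region 1 and 0.1 to 0.308 FPKM in region 2 (log2 4.92 ± 0.60 SE). The scavenger receptor Cd36 measured 0.535 to 0.618 FPKM in 3 animals and 9.02 FPKM in stimulated 2, and in region 2 it lay at the floor of 0.1 FPKM in 3 of 4 libraries (log2 3.37 ± 0.73), so both fitted differences depend on the floor. Lesion phagocyte markers moved with the members, in 5 of 6 (limma, median log2 3.07), with sums of 120 to 953 FPKM against 29.9 to 198 FPKM. Microglia and macrophage markers were called in 1 of 8 (median log2 1.07, sums of 110 to 245 FPKM against 49.9 to 258 FPKM), and oligodendrocyte markers in 4 of 4 (median log2 0.97). Fibroblast markers were called in 3 of 4 (median log2 1.72, sums of 24.8 to 93.4 FPKM against 11.6 to 37.3 FPKM) and Schwann cell markers in 2 of 3 (1.99, sums of 0.875 to 2.07 FPKM against 0.388 to 0.708 FPKM). The part of these markers in the result was not tested.

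**Figure D3:**
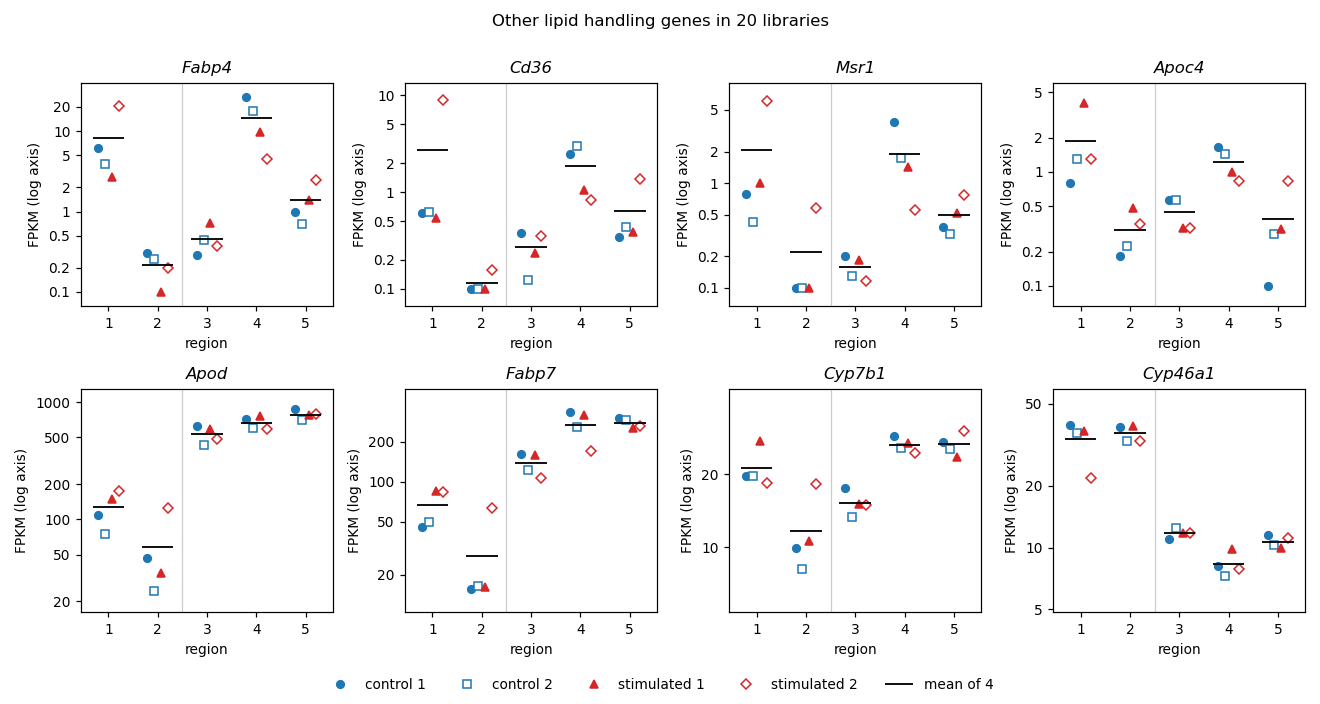
FPKM of 8 other lipid handling genes (log axis) by region, with 1 point for each animal and a line at the mean of 4. Fabp4 reaches 26.7 FPKM in region 4 and 20.4 FPKM in region 1, and Cyp46a1 is higher in regions 1 and 2 than in the cord.

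Over both tissues, 7 members were lower in the white matter blocks than in the cord (regions 1 and 2 minus regions 3 to 5, limma), where 47.1% of all genes were lower and 25% higher. The 3 without a call were Apoc1, Abcg1 and Lpl. The cord libraries include the lesion, where each member was highest. Plin2 and Npc2 differed most, at log2 -1.96 ± 0.32 and -1.93 ± 0.24, or 3.89-fold and 3.81-fold lower. These SEs take the 20 libraries as independent, although they came from 4 animals. Apoe, Abca1, Soat1 and Lipa were all lower by log2 -0.58 to -0.62, and Ch25h by -0.80 ± 0.32.

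No member's libraries were separated between the tissues without overlap, against 10.3% of genes separated upward and 16.8% downward. The count of members called lower was 3 without control 1 (40.1% of all genes), 4 without control 2 (40.8%), 4 without stimulated 1 (41.6%) and 8 without stimulated 2 (51.1%). The sign for Apoe turned to log2 0.52 under quantile normalization. Microglia and macrophage markers were lower in white matter in 7 of 8 (limma, median log2 -0.89), lesion phagocyte markers in 4 of 6 (-1.70) and fibroblast markers in 3 of 4 (-0.82), and their part in the result was not tested. Of the other lipid genes 7 were higher and 30 lower (median log2 -0.71). Apod (log2 -3.10 ± 0.22) and Fabp7 (-2.49 ± 0.23), an apolipoprotein and a fatty acid carrier of glia, led the lower ones, and Cyp46a1 (1.76 ± 0.09) and Fabp3 (1.24 ± 0.11) the higher ones.

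**Figure D4:**
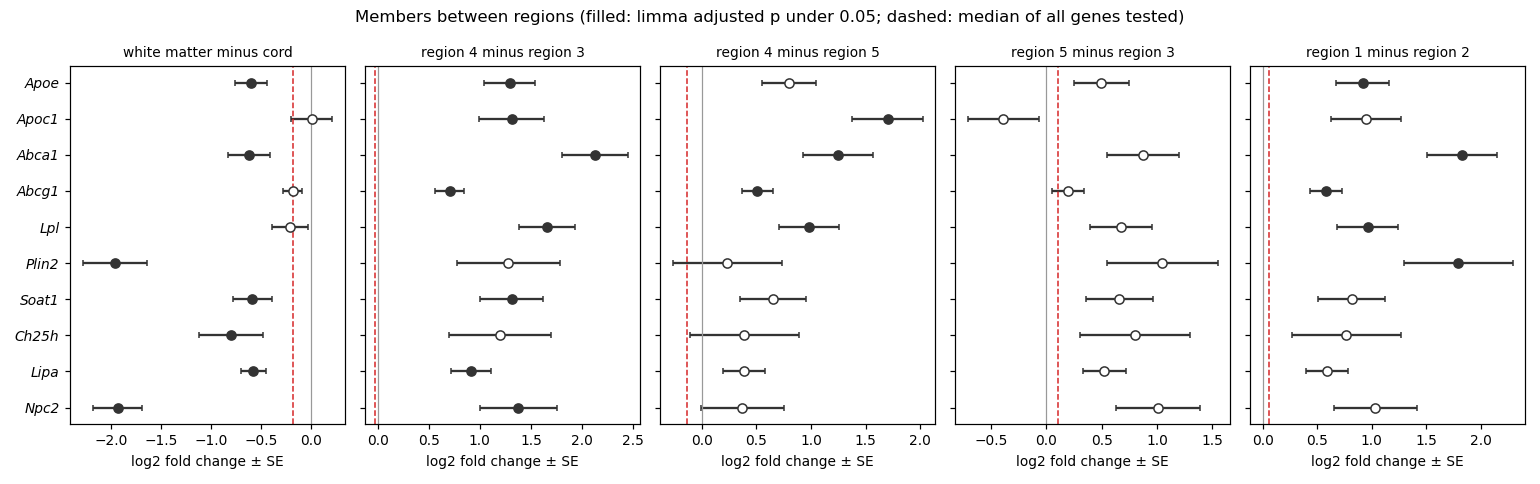
Log2 fold changes ± SE of the 10 genes in the 5 comparisons between regions, filled where the limma adjusted p was under 0.05, with the median of all genes dashed. Abca1 has the largest value in region 4 minus region 3 and in region 1 minus region 2, and Plin2 and Npc2 the lowest in white matter minus cord.

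The study set stimulated against control animals within each region. With 2 animals against 2, an exact permutation test of a single gene cannot give a two-sided p below 0.333. No member was called in any region by limma. In regions 1 to 4 the share of all genes called was 0% in either direction, and in region 5 it was 0.00657% higher and 0.0131% lower. At an unadjusted p under 0.05 the numbers of members for regions 1 to 5 were 4, 1, 0, 1 and 0, against 5.44%, 1.41%, 3.43%, 2.24% and 3.59% of all genes.

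In region 1, below the electrodes, both stimulated animals were above both controls for 8 of the 10 members, where 21.2% of genes were. The median log2 difference was 0.81 for the members and -0.03 for all genes. Abca1 had 33.3 and 40.6 FPKM in the stimulated animals and 19.5 and 20.7 FPKM in the controls (log2 0.87 ± 0.14 SE, limma adjusted p = 0.712, exact permutation p = 0.333). Npc2 had 114 and 89.7 FPKM against 51.5 and 57.5 FPKM (log2 0.89 ± 0.17). Apoe had 2758 and 2377 FPKM against 1362 and 1704 FPKM (log2 0.75 ± 0.45). These differences were of similar size in both stimulated animals. limma draws each SE toward the spread of genes of similar abundance, so that of Apoe is not the spread of its libraries alone.

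For the storage genes the difference in region 1 came mostly from stimulated 2. Plin2 had 9.97 and 52.7 FPKM against 7.39 and 6.44 FPKM (log2 1.73 ± 0.88), and Soat1 12.2 and 21.9 FPKM against 8.38 and 8.48 FPKM (log2 0.96 ± 0.32). Apoc1 was the reverse, with 13.0 FPKM in stimulated 1 and 7.004 FPKM in stimulated 2. Lipa (log2 0.35 ± 0.12) and Ch25h (1.04 ± 0.44) also stood above the controls in both animals, while Abcg1 (0.15 ± 0.15) and Lpl (-0.01 ± 0.27) overlapped. The adjusted p was 0.712 to 1 for all members (limma). Without stimulated 1, Plin2 and Soat1 were called higher, against 1.43% of all genes, a comparison that leaves a single stimulated animal whose spread is assumed to be that of the controls.

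In region 1 the sums of microglia and macrophage, lesion phagocyte and astrocyte markers moved with these values, while those of neuronal and oligodendrocyte markers did not. Microglia and macrophage markers summed to 125 and 110 FPKM in the controls and 169 and 245 FPKM in the stimulated animals, and lesion phagocyte markers to 151 and 120 FPKM and 229 and 953 FPKM. Astrocyte markers summed to 645 and 695 FPKM and 1071 and 1223 FPKM. Neuronal markers went the other way, at 1313 and 1322 FPKM in the controls and 1183 and 817 FPKM in the stimulated animals. Oligodendrocyte markers summed to 1540 and 1685 FPKM in the controls and 2637 and 1340 FPKM in the stimulated animals. Their part in the difference was not tested. Of the 49 other lipid genes, 24 were higher in both stimulated animals, against 21.2% of all genes. In both animals 4 were lower, for which no share of all genes is given here. The median log2 was 0.33, with no call.

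In region 4 all 10 differences were negative, where in region 1 all but that of Lpl had been positive, with a median of -0.54 against 0.00 for all genes. Both stimulated animals were below both controls for 5 members, Apoe, Apoc1, Abca1, Lpl and Lipa, against 7.69% of genes. Lpl had 5.69 and 3.19 FPKM in the stimulated animals and 11.5 and 7.34 FPKM in the controls (log2 -1.11 ± 0.39 SE, unadjusted p = 0.0468, adjusted p = 1, limma). Apoc1 was at log2 -0.97 ± 0.47, Abca1 at -0.75 ± 0.33, Apoe at -0.60 ± 1.40 and Lipa at -0.56 ± 0.29. The other members, which overlapped, were between -0.12 and -0.53. As in region 1, the SE of Apoe is not the spread of its libraries alone.

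These lesion differences rested largely on 2 libraries. Stimulated 2 was the lowest of the 4 for all 10 members, as for 55.1% of genes, and control 1 the highest for 9, as for 26.7% of genes. Without stimulated 2, the signs of Abcg1, Plin2, Ch25h and Npc2 turned positive, at log2 0.03, 0.03, 0.17 and 0.31, and without control 1 that of Npc2 did, at 0.12. Lesion phagocyte markers summed to 1145 and 847 FPKM in the controls and 848 and 423 FPKM in the stimulated animals, and microglia and macrophage markers to 358 and 247 FPKM and 330 and 188 FPKM. Their part in the difference was not tested.

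**Figure D5:**
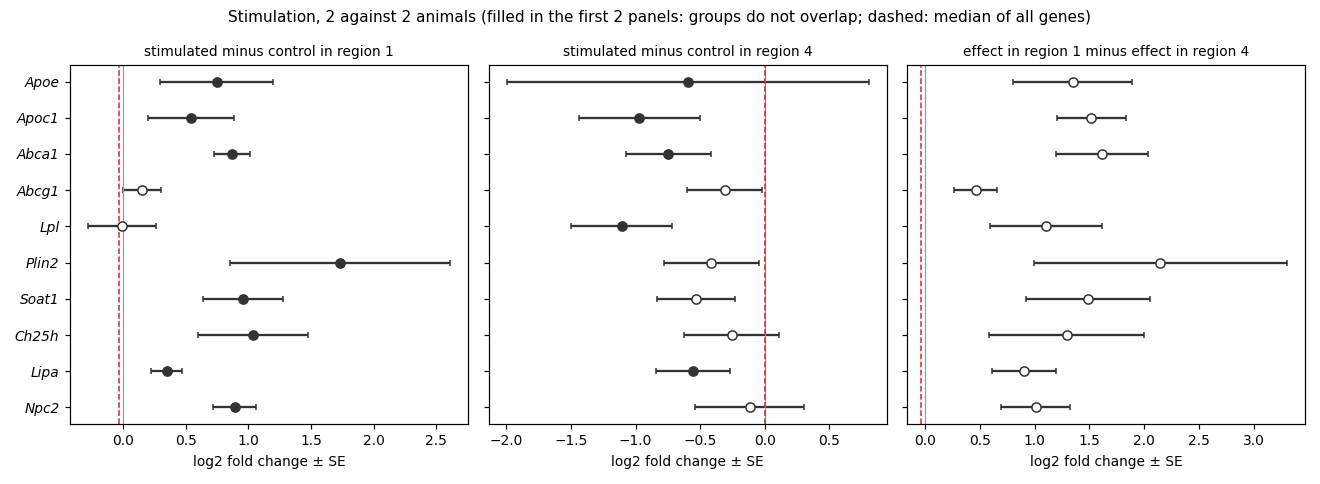
Log2 fold changes ± SE of stimulated minus control animals (2 against 2) in region 1 and region 4, and their difference taken within animals, with the median of all genes dashed. Filled points, for groups that do not overlap, number 8 in region 1 and 5 in region 4. Each point of the right panel is the region 1 value less the region 4 value, and all 10 are above 0.

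The effect in region 1 minus that in region 4 was tested on within-animal differences, a test added after these values were seen. All 10 members were positive, from log2 0.46 for Abcg1 to 2.15 for Plin2, with a median of 1.32 against -0.03 for all genes. Each value is the effect in region 1 less that in region 4, both given above. The signs and the median follow from those effects and are not a separate result. None was called (limma adjusted p from 0.515 to 0.522), and 4 members, Apoc1, Abca1, Lipa and Npc2, had an unadjusted p under 0.05, where 8.3% of genes had. Without stimulated 1 the count of members called was 5, namely Lpl, Plin2, Soat1, Ch25h and Lipa, against 6.23% of all genes higher, with the controls alone giving the spread. For region 1 minus region 2, none was called either, and 2 members had an unadjusted p under 0.05 against 3.78% of genes. These were Apoc1 (log2 1.13 ± 0.37 SE) and Plin2 (0.77 ± 0.26), both with a limma adjusted p of 0.884, and they are named here for that p.

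In region 2 the members of stimulated 2 were the highest of the 4 libraries for 8 of 10, as for 43.9% of genes. Ch25h there was 7.93 FPKM against 0.771 to 1.35 FPKM, and Abca1 16.8 FPKM against 5.39 to 6.68 FPKM. Stimulated 1 had 1.19 and 5.39 FPKM for these genes, within or below the range of the controls. Both stimulated animals were above both controls for Apoe, Plin2 and Npc2 (20.2% of genes) and below them for Apoc1 (6.77% of genes). In region 3 the median difference was -0.04 with no member higher in both animals (5.14% of genes), and Apoc1 and Lipa lower (24.7% of genes). In region 5 it was 0.15, with Lpl and Ch25h higher in both animals (18.5% of genes) and Plin2 lower (6.07% of genes).

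The members were compared with each other and with other protein coding genes by the mean absolute difference of their log2 FPKM over the 20 libraries, each gene centred on its own mean, which is a description without a test. The libraries share animals and regions. The measure is not scaled by a gene's own spread, so its values are not directly comparable between members. The mean absolute deviation of a member ran from 0.278 for Abcg1 to 1.15 for Plin2. Lipa had the closest match, to the lysosomal protease gene Ctsa, at 0.0819, and Ctsa was also the closest match of Apoe, at 0.179. Among members the closest pair was Apoe and Soat1, at 0.184, and the farthest Plin2 and Apoc1, at 1.12. Only for Apoc1 was another member, Lpl at 0.376, closer than any other gene. The nearest genes to the rest were Cndp1 for Abca1 (0.196), Znrf2 for Abcg1 (0.121), Fnip2 for Lpl (0.255), Mdfic for Plin2 (0.212), Fndc3b for Soat1 (0.103), Gna15 for Ch25h (0.136) and Alpk3 for Npc2 (0.185).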

How the data were processed

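Total RNA libraries of 20 tissue blocks (5 regions of 4 rats) were analysed from 1 table of FPKM values. The authors deposited FPKM per gene, estimated after alignment to Rnor6, with values under 0.1 FPKM already raised to 0.1, and 39.7% of values lie at that floor. The submitters' processing notes name FastQC, MultiQC 1.6, TopHat2 2.1.0 and Cufflinks 2.2.1. Whether strand was used in counting is not given in the sources used here, so reads of overlapping or antisense genes may be shared. Columns carried the sample titles, and 0 columns were without a sample.

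Values were log2-transformed, which understates the change of genes near the floor, and the 15210 genes with at least 1 FPKM in any library were tested. Regions were compared in all 20 libraries, each region having its own mean, with the lmFit and eBayes functions of limma 3.58.1 (variance trend on, R 4.3.3). Each gene thus had the same estimate of spread for all comparisons between regions, white matter included. Stimulation was tested in the 4 libraries of each region, and differences of effects on within-animal differences. In every fit the spread of a gene was drawn toward that of genes of similar abundance. Adjustment was that of Benjamini and Hochberg across the whole set of genes, and the threshold was 0.05. Replicates were separate animals, 2 per group, and region libraries of an animal are not independent. Deviations from the region mean correlated across genes between libraries of the same animal by 0.65 (regions 1 and 2), 0.23 (4 and 3), 0.08 (5 and 3) and -0.003 (4 and 5). The pairing of regions by animal comes from the sample titles.

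On simulated data with 200 of 15210 genes changed by a log2 of 2, the steps recovered 191 for region 4 minus region 3, 192 for white matter minus cord, 151 for stimulation in region 1 and 94 where the effects in regions 1 and 2 were compared. False calls numbered 11, 11, 13 and 3 in the same order. Noise was drawn independently for each simulated library, with no effect of the animal, so recovery in the real data may differ. The planted change also exceeded the stimulation effect of every member in region 1, the largest being log2 1.73 for Plin2. Recovery of smaller changes was not measured. Alternatives were log2(FPKM + 1), no filter, upper-quartile scaling, quantile normalization, blocks, a single model of all libraries, eBayes without a trend and leaving out each animal. Promoter windows, gene names and neighbours came from RefSeq tables on GRCr8. Tables and figures were made in Python 3.11.15 with matplotlib 3.10.9 (figures), pandas 2.3.3, scipy 1.17.1 and numpy 2.4.6.

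The members, lists and tests were chosen with earlier results of these data known. The genes named were all members; for each, the gene and the member with the most similar profile; and of the lipid list, for each comparison between regions, the 2 with the largest change in each direction past the threshold. Cd36, also on the list, fell under that rule below the implant. A result of this list that the rule would name is not reported here. Read depth per gene, and the intervals that need it, cannot be given from FPKM.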

Additional observations from a re-analysis of the deposited data

Results flagged for a closer look

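Some member values stood apart from the other 3 libraries of their region, by a gap to the nearest of them that took more of the whole range than the critical value of Dixon's test allows. The gaps were taken on the log2 scale. Of 50 groups of 4 tested, 5 did so, and chance alone gives about 1 in 20. On the FPKM scale, tried after seeing the data, 8 did, with Plin2 in region 1 and Abca1 and Ch25h in region 2, each in stimulated 2, added to those given here. Apoe in region 5 was 2528 FPKM in stimulated 2 against 1868 to 1904 FPKM (gap 0.938 of the range). In region 1, stimulated 1 stood apart for Apoc1, at 13.0 FPKM against 6.20 to 7.004 FPKM (gap 0.836), and for Abcg1, at 20.3 FPKM against 16.1 to 16.4 FPKM (gap 0.920). In region 2, stimulated 2 stood apart for Plin2, at 9.34 FPKM against 2.57 to 2.74 FPKM (gap 0.950), and for Npc2, at 111 FPKM against 23.1 to 27.1 FPKM (gap 0.899).

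Other values were noted because both stimulated animals lay above both controls in one region and below them in another. The difference of the log2 effects between regions 1 and 4 was 1.35 for Apoe, 1.52 for Apoc1, 1.62 for Abca1 and 0.91 for Lipa, and between regions 1 and 2 it was 1.13 for Apoc1. These 5 were tested with limma on within-animal differences and none passed the threshold (adjusted p = 0.515 between regions 1 and 4 and 0.884 between regions 1 and 2). The difference was not tested for Apoe between regions 2 and 4 (1.03), Apoc1 between 1 and 3 (0.93), Lpl between 4 and 5 (-1.61), Plin2 between 1 and 5 (1.79) and between 2 and 5 (1.02), or Lipa between 1 and 3 (0.50).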

How the results depend on the processing

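Of 125 recomputed counts of members called, 104 stayed within 1.5 times the reported count. Most of these were counts of 0 that stayed at 0, for stimulation and for region 5 minus region 3. For white matter minus cord 7 counts held and 3 fell, and for region 4 minus region 3 also 7 and 3. For region 4 minus region 5, 5 held, 4 fell and 1 rose. For region 1 minus region 2, 4 held, 5 fell and 1 rose. Leaving out each animal gave 3 to 8 members for white matter minus cord, 3 to 10 for region 4 minus region 3, 0 to 7 for region 4 minus region 5, 0 to 3 for region 5 minus region 3 and 0 to 9 for region 1 minus region 2. For stimulation the counts under these omissions are not compared here, since a group then holds a single animal with no spread of its own. Without a filter on low values the count was 1 for region 4 minus region 5 and 1 for region 1 minus region 2, and with log2(FPKM + 1) it was 3 for region 1 minus region 2. Without the filter, Apoe kept its log2 values between regions but lost each call (limma adjusted p of 0.984 to 1). The cause of these changes was not tested.

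Of 840 recomputed values of single members, 15 turned in sign. Under quantile normalization Apoe turned to 0.52 for white matter minus cord, past the limma threshold, and to -0.030 for region 5 minus region 3. This setting gives the top ranks, where Apoe lies, the same value in every library. Apoc1 for white matter minus cord was -0.0093 with log2(FPKM + 1) and -0.089 to 0.20 over leaving out an animal. Lpl for stimulation in region 1 was 0.019 with upper-quartile scaling. Over leaving out an animal it was -0.28 to 0.27, and Abcg1 in the same comparison -0.017 to 0.32. For stimulation in region 4 the ranges were -0.65 to 0.028 for Abcg1, -0.86 to 0.033 for Plin2, -0.69 to 0.17 for Ch25h and -0.54 to 0.31 for Npc2.

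The animal as a block changed 1 call, that of Apoc1 for region 1 minus region 2. It left 7 members lower for white matter minus cord, against 48.5% of all genes. Members called higher were 8 for region 4 minus region 3 (8.79% of all genes) and 4 for region 4 minus region 5 (1.25%). They were 0 for region 5 minus region 3 (4.05%) and 6 for region 1 minus region 2 (9.63%). Control and stimulated animals with the same number are different animals, and with that number as a block 0 members were called in each region. Of all genes, 2.12% were then higher and 0.796% lower in region 5, and 0% in the other regions. Deviations of animals with the same number correlated across genes by -0.21, -0.10, -0.11, 0.32 and -0.16 in regions 1 to 5. Depth cannot be read from FPKM, and 2 animals per group limit what could be called.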
